A study of Homo sapiens with 6 samples.

Results

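Long noncoding, antisense and small nucleolar RNA (snoRNA) host transcripts were followed in VCaP cells after knockdown of PRMT5. Their genes were chosen by symbol: long intergenic noncoding RNAs (LINC), antisense transcripts (AS), intronic transcripts (IT), snoRNA host genes (SNHG) and microRNA host genes (MIRHG). A gene was kept where a probe set carrying its symbol alone reached the median intensity of its array on at least 2 of 6 arrays, and the probe set with the highest mean was used. This left 372 of the 12413 genes tested, of which 246 were AS, 106 LINC, 8 MIRHG, 6 IT and 6 SNHG. The platform holds 1688 genes with such symbols, so 1316 were too dim to enter. RefSeq lists 368 of the 372 as lncRNA and 2 as antisense RNA, and the other 2 were not matched.

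VCaP is an established human prostate cancer line that carries a TMPRSS2-ERG fusion. The 3 groups of 2 arrays are cells with PRMT5 shRNA 1, cells with PRMT5 shRNA 2 and cells with a non-targeting hairpin (NTC shRNA). Every group, NTC included, was kept in 100 ng/ml doxycycline for 3 days, so no uninduced cells are compared. The labels do not say whether replicates were separate cultures or whether a hairpin line is 1 clone. The p-values therefore reflect no more than how far these arrays spread, and that spread may be technical.

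PRMT5 places symmetric dimethyl marks on arginines of histones and of the Sm proteins of the splicing machinery. Antisense transcripts are read from the strand opposite a named gene and often start close to its promoter. snoRNA and microRNA host genes carry small RNAs in their introns or exons, so the host's spliced RNA and the small RNA share a primary transcript, while values here are those of host transcripts. Many spliced snoRNA host RNAs are known substrates of nonsense-mediated decay.

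The sequences that follow are 5 of the mature microRNAs within the 3 called microRNA hosts and the start regions of 3 called members, all from RefSeq (GRCh38.p14). The microRNAs show the seed shared by 2 hosts called in opposite directions, though neither call was firm. The start regions show how close an antisense start can lie to that of its sense gene. They also show what lies before the microRNA host with the largest difference. All sequences are read 5′ to 3′, with the seed (bases 2 to 8) of each microRNA in capitals. let-7c-5p lies inside MIR99AHG, and let-7a-5p and let-7b-5p inside MIRLET7BHG, and these 3 share the seed GAGGUAG.
hsa-miR-210-3p: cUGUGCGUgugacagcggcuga
hsa-miR-99a-5p: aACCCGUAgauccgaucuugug
hsa-let-7c-5p: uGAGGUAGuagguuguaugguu
hsa-let-7a-5p: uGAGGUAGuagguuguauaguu
hsa-let-7b-5p: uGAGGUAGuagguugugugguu

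RBM26-AS1 and ZBED5-AS1 each start close to the start of the gene they are named for, on the other strand. In both, capitals mark the bases from the start of the sense gene to the start of the antisense transcript. They span 55 bases for RBM26-AS1 (chr13:79406059-79406358, plus strand) and 165 bases for ZBED5-AS1 (chr11:10857967-10858266, plus strand). In the region of MIR210HG (chr11:568408-568707, minus strand), capitals mark ACGTG, 170 bases before the start, and GCGTG, 9 bases before it. Both strands were searched for these 2 words, the core of sites bound by hypoxia-inducible factors, and the 2 matches do not overlap. Of 27305 start regions of the same length, 21.6% hold ACGTG and 36.3% hold GCGTG. Among start regions of the genes tested the shares are 27% and 50.8%, and among those of members 27.7% and 43.7%, so a match is only a description.
RBM26-AS1: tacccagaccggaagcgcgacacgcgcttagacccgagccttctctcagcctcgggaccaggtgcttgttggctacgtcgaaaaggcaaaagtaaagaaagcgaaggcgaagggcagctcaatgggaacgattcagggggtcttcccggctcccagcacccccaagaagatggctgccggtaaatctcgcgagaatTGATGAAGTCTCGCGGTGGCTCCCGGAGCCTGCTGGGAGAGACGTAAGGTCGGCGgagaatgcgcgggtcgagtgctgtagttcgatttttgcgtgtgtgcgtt
ZBED5-AS1: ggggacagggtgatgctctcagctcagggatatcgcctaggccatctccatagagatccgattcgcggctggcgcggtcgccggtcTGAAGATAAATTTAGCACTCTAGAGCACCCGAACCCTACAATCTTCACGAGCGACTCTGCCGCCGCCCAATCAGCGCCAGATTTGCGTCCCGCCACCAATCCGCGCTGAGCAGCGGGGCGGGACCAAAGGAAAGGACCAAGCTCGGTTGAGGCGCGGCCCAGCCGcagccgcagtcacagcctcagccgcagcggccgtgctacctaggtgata
MIR210HG: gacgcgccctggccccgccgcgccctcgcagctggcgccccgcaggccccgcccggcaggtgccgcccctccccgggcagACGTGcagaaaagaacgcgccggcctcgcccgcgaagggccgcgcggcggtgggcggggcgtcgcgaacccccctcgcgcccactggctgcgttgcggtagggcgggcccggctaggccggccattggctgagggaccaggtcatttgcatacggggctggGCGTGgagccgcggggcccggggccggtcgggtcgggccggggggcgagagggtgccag

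The deposited values are MAS5 intensities on a linear scale, and array medians lay between 14.8 and 16.4. Correlations over genes were 0.996 to 0.997 between arrays of a group and 0.976 to 0.991 between groups. PRMT5 itself was at 136 and 134 with PRMT5 shRNA 1 and at 291 and 321 with PRMT5 shRNA 2, against 810 and 881 with NTC shRNA, so the knockdown was deeper with the first hairpin. All 8 measured luminal prostate markers, among them KLK3 and HOXB13, and ERG were above the array median on all 6 arrays. The 2 immune and 3 endothelial markers were below it on every array, as were 3 of 4 fibroblast markers and 1 of 2 basal markers, while COL1A1 (24.6 to 54.0) and KRT14 (26.5 to 52.5) were above. In bulk RNA, fewer cells of a type and less of a transcript per cell cannot be told apart.

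Brightness chose the members and is given only as a description. Member intensities, averaged over the 6 arrays, ran between 11.9 and 3129 with a median of 43.6, against a median of 251 over all genes tested. The replicate standard deviation had a median of 0.10 in members and 0.08 in all genes on the log2 scale. Of the members, 282 reached the array median on all 6 arrays. Arrays of all 3 groups reached it for 317 members, of 2 groups for 41 and of a single group for 14, and those 14 entered only through the group in which they were bright. Just inside the limit lay SERTAD4-AS1, LINC01876 and FAR2-AS1, whose second highest ratio to the array median was 1.01 in each. Just outside lay EXOC3-AS1, LINC01465 and LINC01547, at 0.976 in each.

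Knockdown of PRMT5 left most noncoding members without a call and moved the rest in both directions. With both PRMT5 hairpins averaged and set against NTC shRNA, 47 of 372 members were higher and 65 lower (limma, Benjamini-Hochberg adjusted p under 0.05 over all genes, two-sided). That is 30.1% of the members, beside 32.4% of all genes tested. By direction it was 12.6% higher and 17.5% lower, beside 15.4% and 17.0% of all genes, so the members' share was near the background. The median log2 difference was -0.02 in members and -0.01 in all genes. A difference is on the log2(intensity + 16) scale, which understates the change of dim genes. Without NTC replicate 1 the call count was 53 (17.7% of all genes), without NTC replicate 2 it was 70 (18.6%), and 45 of the 112 calls were kept whichever single array was left out.

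Among LINC members 14 were higher and 23 lower of 106, among AS members 29 and 40 of 246. Of 6 IT members 1 was higher and 1 lower, of 8 MIRHG members 2 and 1, and of 6 SNHG members 1 was higher and none lower. Whether the classes differ was not tested. Called and at least 2-fold changed were 6 members, beside 253 genes or 2.04% of all, and these were SPRY4-IT1, LINC00662, LINC02593 and MIR210HG upward and LINC00294 and LINC01687 downward. The 4 knockdown arrays lay on 1 side of both NTC arrays for 152 members, or 40.9%, beside 39.2% of all genes. Above NTC were 68 of them, beside 18.7% of all genes, and below NTC 84, beside 20.6%.

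**Figure D1:**
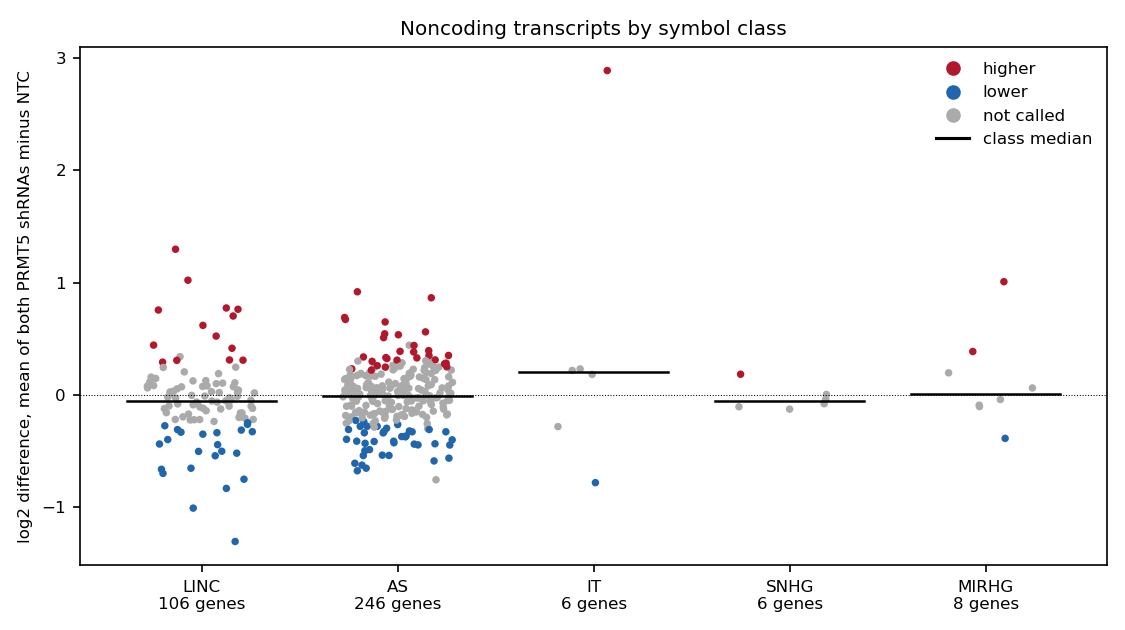
Each point is a noncoding gene, by symbol class along the horizontal axis, and the vertical axis is the log2 difference of the mean of both PRMT5 shRNAs minus NTC shRNA. Red points were called higher, blue points lower and grey points not called, and bars mark class medians. SPRY4-IT1 stands at 2.89, apart from the other IT members.

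SPRY4-IT1 rose most. It comes from within the span of SPRY4, a feedback inhibitor of receptor tyrosine kinase signalling (chromosome 5, SPRY4-IT1 142317620 to 142318322, SPRY4 142310430 to 142325021, GRCh38.p14). SPRY4-IT1 was at 318 and 401 with PRMT5 shRNA 1 and at 185 and 156 with PRMT5 shRNA 2, against 22.5 and 16.7 with NTC shRNA. All 4 knockdown arrays lay far above both NTC arrays, with a log2 difference of 2.89 ± 0.11 (SE, limma adjusted p = 1.54e-08). The SPRY4 probe set was at 403 and 390 with PRMT5 shRNA 1 and at 286 and 232 with PRMT5 shRNA 2, against 31.7 and 33.7 with NTC shRNA. Its difference was 2.79 ± 0.09 (limma adjusted p = 3.8e-09). Unspliced SPRY4 RNA and SPRY4-IT1 cannot be told apart on an array where the shorter lies inside the longer.

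LINC00662 and LINC02987, whose annotated spans touch on chromosome 19, rose together. LINC00662 (27790493 to 27793940) was at 598 and 567 with PRMT5 shRNA 1 and at 481 and 468 with PRMT5 shRNA 2, against 204 and 205 with NTC shRNA. The groups did not overlap, and the log2 difference was 1.30 ± 0.06 (SE, limma adjusted p = 5.86e-08). All 5 of its kept probe sets were higher with knockdown, with log2 differences of 1.12 to 1.43. LINC02987 (27793431 to 28024969) was at 1925 and 1939 with PRMT5 shRNA 1 and at 1820 and 1613 with PRMT5 shRNA 2, against 1023 and 1123 with NTC shRNA (0.76 ± 0.06, limma adjusted p = 4.32e-06). Its second probe set differed by 0.55 in the same direction. RefSeq places LINC00662 on the minus strand and LINC02987 on the plus strand, with starts at 27793940 and 27793431. Whether their probe sets read the shared bases was not tested.

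LINC02593, on chromosome 1 (916818 to 919692), was the other LINC gene with a 2-fold rise. It was at 123 and 95.7 with PRMT5 shRNA 1 and at 114 and 126 with PRMT5 shRNA 2, against 47.6 and 48.7 with NTC shRNA. The 4 knockdown arrays were all above the NTC arrays (1.02 ± 0.10, limma adjusted p = 2.57e-05). The nearest gene tested, SAMD11, lies 4231 bases away and was higher too (0.74 ± 0.08, adjusted p = 6.72e-05). LINC01128, 57372 bases off on its other side, moved the other way. LINC01128 was at 682 and 637 with PRMT5 shRNA 1 and at 851 and 833 with PRMT5 shRNA 2, against 1228 and 1215 with NTC shRNA (-0.70 ± 0.05, adjusted p = 2.77e-06). All 5 of its kept probe sets were lower, by log2 differences of -0.31 to -0.89.

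**Figure D2:**
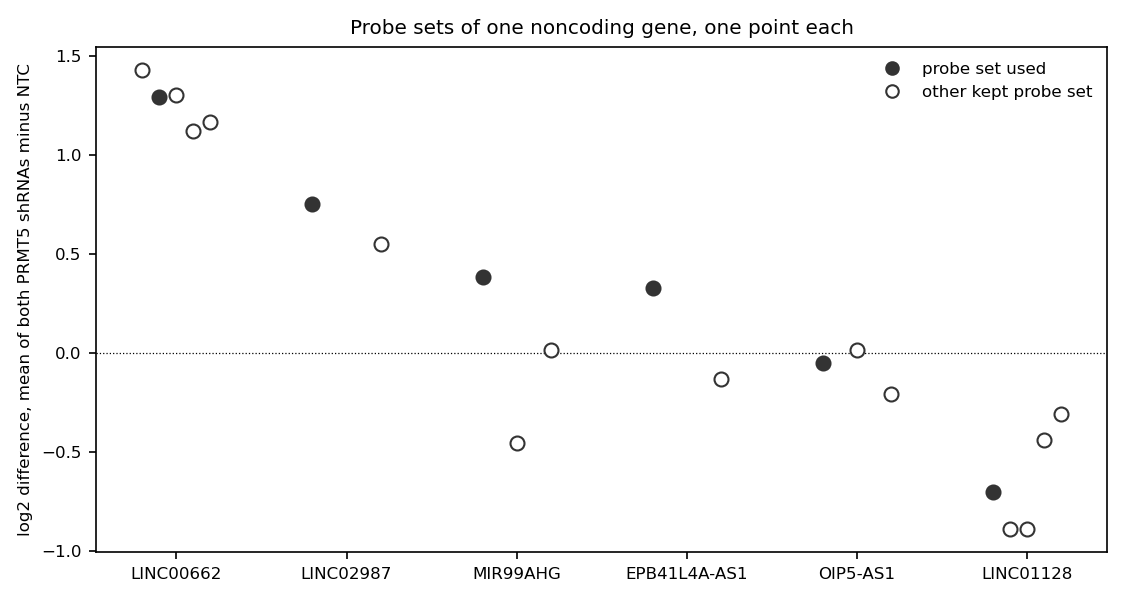
Each point is a kept probe set of the gene named on the horizontal axis, and the vertical axis is its log2 difference, mean of both PRMT5 shRNAs minus NTC shRNA. Filled points are the probe set used for the gene and open points the others, from highest to lowest mean intensity within a gene. The sets of LINC00662, of LINC02987 and of LINC01128 lie on 1 side of 0, while those of MIR99AHG, EPB41L4A-AS1 and OIP5-AS1 do not.

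The further risers in the named group were all called with each hairpin. DLGAP1-AS1 was at 60.6 and 62.1 with PRMT5 shRNA 1 and 101 and 75.7 with PRMT5 shRNA 2, against 34.6 and 28.4 with NTC shRNA (0.92 ± 0.11, limma adjusted p = 0.000126). INKA2-AS1 averaged 34.3 with PRMT5 shRNA 1 and 27.6 with PRMT5 shRNA 2, against 9.7 with NTC shRNA (0.86 ± 0.10). LINC02387 averaged 319 and 416 in the same order of hairpins, against 208 (0.76 ± 0.08). LINC01213 rose by 0.70 ± 0.09, with knockdown arrays between 126 and 147 and NTC arrays at 83.4 and 71.2. The knockdown arrays of all 4 lay above both NTC arrays. INKA2-AS1 reached the array median on its knockdown arrays alone, so the brightness rule itself favoured its rise. It is no longer tested where a member must reach the array median on all 6 arrays.

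Of the genes that fell, LINC00294 and LINC01687 fell at least 2-fold. LINC00294 (chromosome 11, 33076150 to 33079454) was at 470.1 and 471 with PRMT5 shRNA 1 and at 618 and 623 with PRMT5 shRNA 2, against 1137 and 1075 with NTC shRNA. The groups were well apart, with the lowest values under the deeper knockdown (-1.01 ± 0.05, limma adjusted p = 1.56e-07). Its nearest tested gene, TCP11L1, 2587 bases away, was lower as well (-0.75 ± 0.10, adjusted p = 0.000173). LINC01687 was at 4.2 and 6.1 with PRMT5 shRNA 1 and at 9.3 and 15.2 with PRMT5 shRNA 2, against 43.1 and 45.6 with NTC shRNA (-1.31 ± 0.11, adjusted p = 7.63e-06). Only its NTC arrays were above the array median, so it entered through the group in which it is bright and had to differ.

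The other named LINC genes that fell were LINC03018, LINC02076, LINC00622 and LINC00623. LINC02076 averaged 91.9 with PRMT5 shRNA 1 and 103 with PRMT5 shRNA 2, against 175 with NTC shRNA (-0.75 ± 0.08, limma adjusted p = 4.45e-05). LINC00623 averaged 305 and 393 in the same order, against 554 with NTC shRNA (-0.66 ± 0.06, adjusted p = 1.67e-05). LINC00622 had knockdown arrays between 53.2 and 66.0 and NTC arrays at 107 and 93.8 (-0.66 ± 0.10), and LINC03018 had knockdown arrays between 12.7 and 20.4 and NTC arrays at 40.8 and 39.4 (-0.84 ± 0.10). None of these overlapped between knockdown and NTC. LINC03018 reached the array median on both NTC arrays but on only 1 knockdown array, the one at 20.4. The brightness rule itself therefore favoured its fall, and its lack of overlap is no further support. LINC03018 is no longer tested where a member must reach the array median on every array. LINC00623, LINC02076 and LINC03018 were measured by probe sets that can pair with more than one transcript (_x_at or _s_at) and have no other kept set.

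**Figure D3:**
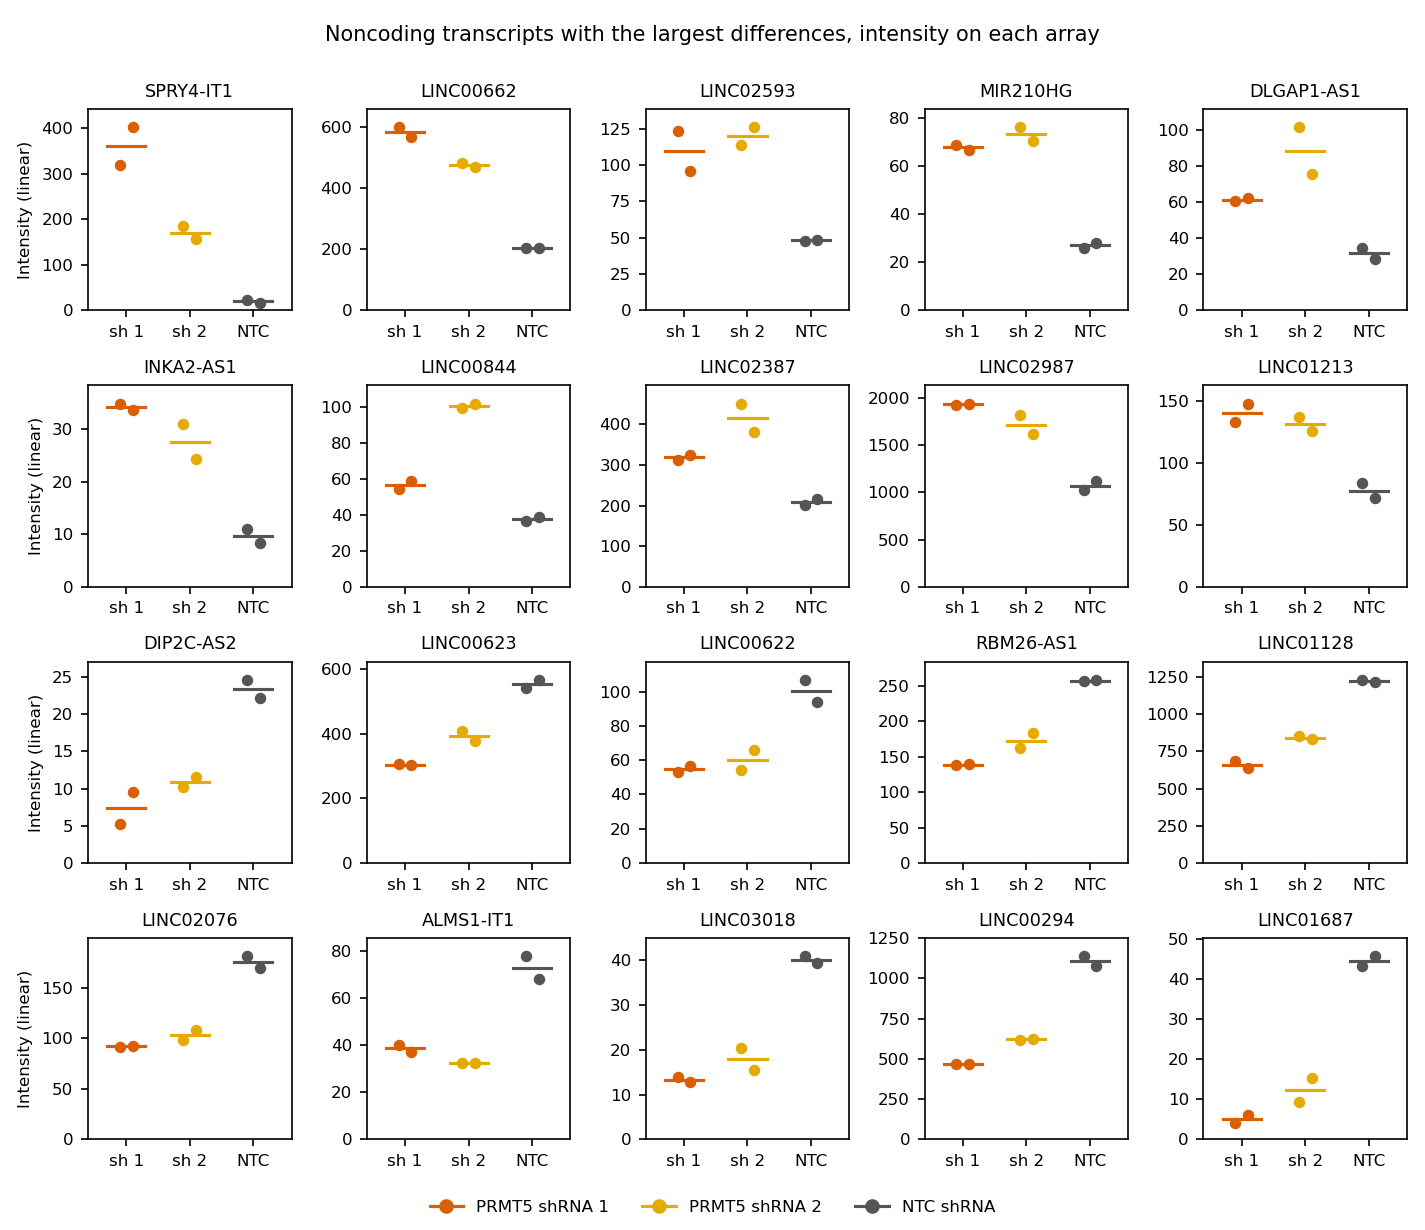
Each panel is a noncoding gene, with intensity on a linear axis from 0, a point per array and a bar at the group mean, for PRMT5 shRNA 1, PRMT5 shRNA 2 and NTC shRNA. The upper 10 genes were higher and the lower 10 lower with knockdown. SPRY4-IT1 reaches 401 with PRMT5 shRNA 1, while its NTC arrays are at 22.5 and 16.7.

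Nearest neighbours were looked up for the 119 LINC, SNHG and MIRHG members with a position, after values had been seen. Of 41 called members, 16 had a called nearest neighbour, 6 pairs with both higher, 7 with both lower and 3 in opposite directions. Over all 119, the neighbour was called for 37, and of all genes tested 32.4% were called. LINC00662 and LINC02987 are each other's neighbour and count as 2 of the 6 pairs. A nearest tested gene is not always close. LINC00685 and GTPBP6, both lower, lie 349 bases apart, while LINC00992 and SEMA6A, both higher, lie 840689 bases apart.

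Of the 6 snoRNA host genes, SNHG32, which carries box C/D snoRNAs in the class III region of the major histocompatibility complex, was the one called. It was at 2306 and 2332 with PRMT5 shRNA 1 and at 2165 and 2085 with PRMT5 shRNA 2, against 1905 and 2003 with NTC shRNA. The knockdown arrays lay just above the NTC arrays, with a log2 difference of 0.18 ± 0.05 (limma adjusted p = 0.0109). The only kept probe set of SNHG32 is an _s_at set. Its call was lost with both hairpins as 1 group (limma adjusted p = 0.0849) and without the intensity trend in the fit (0.0539). The call was also lost without NTC replicate 1, where the difference was 0.15. SNHG17 averaged 881 with PRMT5 shRNA 1 and 879 with PRMT5 shRNA 2, against 948 with NTC shRNA (-0.11 ± 0.06, adjusted p = 0.22). That value comes from an _s_at probe set, and SNHG17 was called lower without such sets (-0.25, adjusted p = 0.0145) and with the mean over its probe sets (-0.18, adjusted p = 0.0156). SNHG19 averaged 676 and 669, against 671 with NTC shRNA (0.00 ± 0.06, adjusted p = 0.982). The groups of SNHG19 overlapped. For SNHG17, PRMT5 shRNA 1 overlapped NTC, while both PRMT5 shRNA 2 arrays lay below the NTC arrays. The remaining 3, SNHG4, SNHG10 and SNHG33, differed by -0.13 to -0.04 without a call.

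The proteins that assemble snoRNAs were counted beside their hosts. Beside 15.4% higher and 17.0% lower of all genes, of 16 tested snoRNP genes none was higher and 3 were lower, NOP58, a core box C/D protein (-0.31 ± 0.06, limma adjusted p = 0.00161), NUFIP1 (-0.28) and RUVBL2 (-0.19), and the median was -0.04. NAF1 (-0.24) and RUVBL1 (-0.20) were not called. Of 9 nonsense-mediated decay factors 3 were lower, RBM8A of the exon junction complex (-0.32), SMG8 (-0.28) and SMG9 (-0.24), and SMG5 was at -0.16 without a call. Of 19 genes of the nuclear RNA exosome and RNA turnover 3 were lower, the nuclease DIS3 (-0.24), EXOSC6 (-0.24) and ZFC3H1 (-0.19), while EXOSC3 (-0.16) was not called. The medians were -0.15 and -0.07, beside -0.01 over all genes.

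Of the 8 microRNA host members, MIR210HG moved most. It hosts miR-210, a microRNA known for its induction under low oxygen, whose seed UGUGCGU is printed above. MIR210HG was at 69.0 and 66.8 with PRMT5 shRNA 1 and at 76.2 and 70.5 with PRMT5 shRNA 2, against 25.9 and 28.2 with NTC shRNA. The knockdown arrays were apart from NTC, with a rise of 1.01 ± 0.09 (limma adjusted p = 8.81e-06). The difference between the hairpins was 0.09 ± 0.10 (adjusted p = 0.546), which does not show that they act alike. RASSF7, 1632 bases away, was at -0.12 ± 0.09 (adjusted p = 0.345).

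The 2 let-7 hosts that were called moved in opposite directions, and neither call was firm. MIR99AHG was at 755 and 617 with PRMT5 shRNA 1 and at 682 and 475 with PRMT5 shRNA 2, against 492 and 455 with NTC shRNA (0.39 ± 0.12, limma adjusted p = 0.0334). One array of PRMT5 shRNA 2 fell within the NTC range, and the other 2 kept probe sets were at -0.45 and 0.01. The set used is an _s_at set, and without _x_at and _s_at sets MIR99AHG was called lower (-0.45, limma adjusted p = 0.00505). MIRLET7BHG was at 13.5 and 10.9 with PRMT5 shRNA 1 and at 10.6 and 6.7 with PRMT5 shRNA 2, against 20.3 and 16.7 with NTC shRNA (-0.39 ± 0.11, adjusted p = 0.0207). It lies near background and reached the array median only on its NTC arrays, so the brightness rule itself favoured its fall. Leaving out an array ended the MIR99AHG call for NTC replicate 1 (0.44, adjusted p = 0.0803), NTC replicate 2 (0.33, 0.174) and PRMT5 shRNA 1 replicate 1 (0.31, 0.088). It ended the MIRLET7BHG call for NTC replicate 1 (-0.31, adjusted p = 0.164), PRMT5 shRNA 1 replicate 2 (-0.36, 0.0546) and PRMT5 shRNA 2 replicate 2 (-0.33, 0.0519).

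The other 5 microRNA hosts were not called over both hairpins. MIR550A3HG averaged 90.7 with PRMT5 shRNA 1 and 107 with PRMT5 shRNA 2, against 107 with NTC shRNA (-0.11 ± 0.10), and MIR570HG averaged 68.3 and 55.8, against 66.7 (-0.09 ± 0.10). MIR200CHG, host of the epithelial microRNAs miR-200c and miR-141, was at 51.5 and 49.7 with PRMT5 shRNA 1 and at 78.8 and 65.3 with PRMT5 shRNA 2, against 64.1 and 51.1 with NTC shRNA (0.06 ± 0.10). Its PRMT5 shRNA 1 and NTC arrays overlapped, while both PRMT5 shRNA 2 arrays lay above the arrays of the other groups. MIR200CHG was called higher with PRMT5 shRNA 2 than with PRMT5 shRNA 1 (0.40). In all, 15 members hold 23 hairpins within their span, some on the other strand. Of these members 3 were higher, 3 lower and 9 not called, beside 15.4% higher and 17.0% lower of all genes. The array has no reading of mature microRNAs here, so these values are those of the host transcripts.

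Among 14 tested genes of microRNA processing 2 were higher and 2 lower, beside 15.4% higher and 17.0% lower of all genes. AGO4, an Argonaute that binds mature microRNAs, averaged 623 with PRMT5 shRNA 1 and 420 with PRMT5 shRNA 2, against 296 with NTC shRNA (0.76 ± 0.07, limma adjusted p = 8.49e-06). AGO1 was higher by 0.22 on average, at 0.01 with PRMT5 shRNA 1 and 0.44 with PRMT5 shRNA 2. DROSHA, the nuclear enzyme that cuts primary transcripts, was lower (-0.33 ± 0.05), as was the export factor XPO5 (-0.28 ± 0.06). The remaining 10 had no call and the list median was -0.02.

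Antisense and intronic members were set beside the gene in their name. Of 252 such members, 208 had a tested sense gene (207 different genes), and in these pairs 61 antisense or intronic transcripts and 73 sense genes (35.1%) were called, beside 32.4% of all genes. Both were called in 27 pairs, 8 with both higher, 16 with both lower and 3 in opposite directions. In 34 pairs the antisense or intronic member alone was called, in 46 the sense gene alone and in 101 neither. Pearson's r of the log2 differences over pairs was 0.52 with all 208 pairs and 0.27 over the 203 AS pairs, that is, without SPRY4-IT1 and the other IT pairs. Pairs share the same 6 arrays and often the same locus, so r is a description. The strand that each probe set reads is not given in the sources used here.

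**Figure D4:**
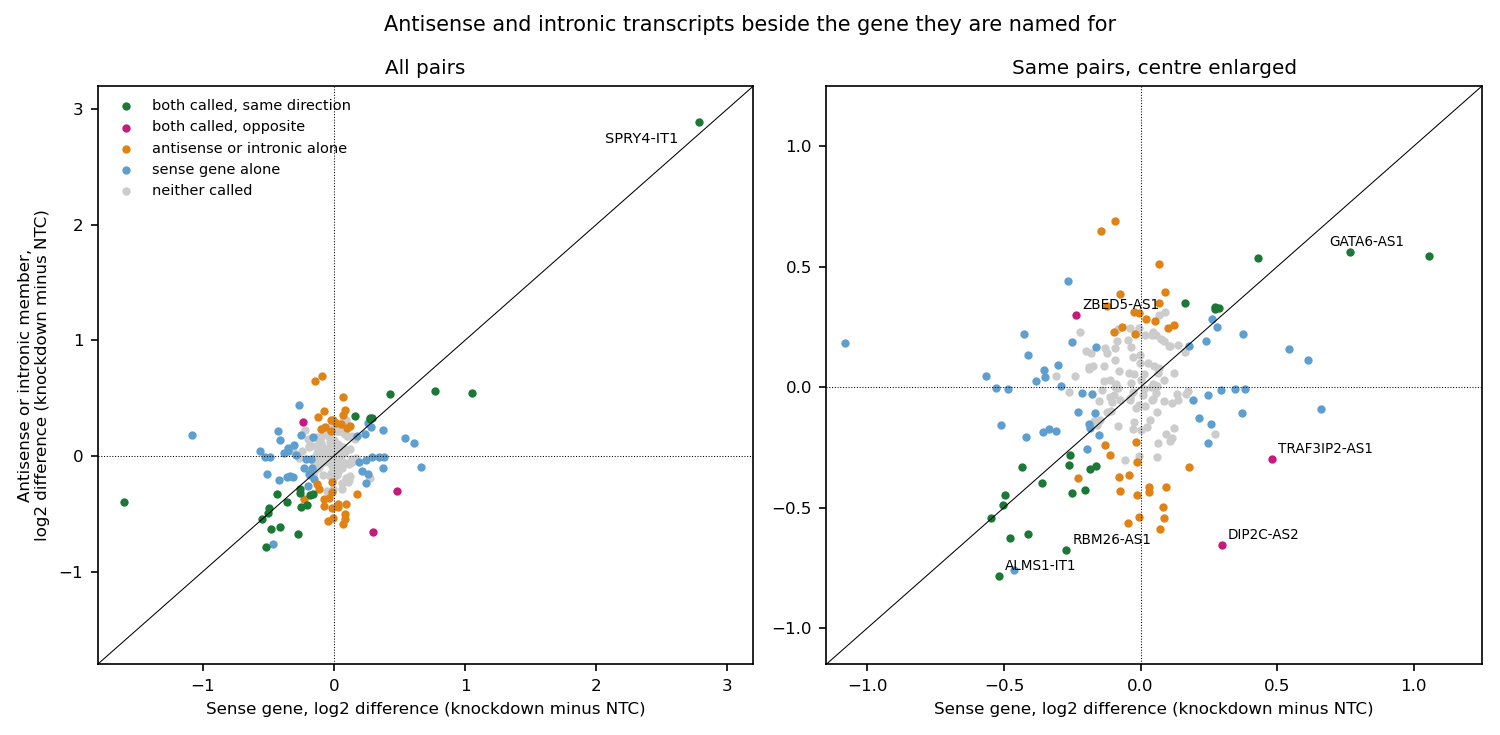
Each point is a pair, with the log2 difference (mean of both PRMT5 shRNAs minus NTC shRNA) of the sense gene on the horizontal axis and that of the antisense or intronic member on the vertical axis. The left panel shows all 208 pairs and the right panel its centre, and colour tells which of the pair was called. The line marks equal differences, and the 3 pairs called in opposite directions are labelled on the right.

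ALMS1-IT1 and RBM26-AS1 were the named members that fell beside their sense genes. ALMS1-IT1 was at 40.2 and 37.2 with PRMT5 shRNA 1 and at 32.3 and 32.6 with PRMT5 shRNA 2, against 77.6 and 67.9 with NTC shRNA (-0.78 ± 0.09, limma adjusted p = 9.2e-05). It lies within ALMS1, which encodes a centrosomal protein, on the same strand. ALMS1 was at 86.2 and 72.2 with PRMT5 shRNA 1 and at 90.2 and 111 with PRMT5 shRNA 2, against 137 and 132 with NTC shRNA (-0.52 ± 0.10, adjusted p = 0.00241), a call that ended without _x_at and _s_at probe sets (-0.26, adjusted p = 0.104).

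RBM26-AS1 was at 138 and 139 with PRMT5 shRNA 1 and at 162 and 183 with PRMT5 shRNA 2, against 256 and 258 with NTC shRNA (-0.68 ± 0.08, limma adjusted p = 5.78e-05). Its start lies 54 bases from that of RBM26, an RNA-binding protein gene, in the region printed above. RBM26 was at 460 and 424 with PRMT5 shRNA 1 and at 291 and 358 with PRMT5 shRNA 2, against 491 and 431 with NTC shRNA (-0.27 ± 0.09, adjusted p = 0.0353). RBM26 overlapped between PRMT5 shRNA 1 and NTC, while RBM26-AS1 did not. The RBM26 call ended without NTC replicate 1 (-0.18, adjusted p = 0.297), PRMT5 shRNA 1 replicate 2 (-0.24, 0.0928) or PRMT5 shRNA 2 replicate 1 (-0.20, 0.0678).

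Starts within 1000 bases on opposite strands were found for 70 pairs, of which 8 had both members called, 2 higher, 5 lower and 1 opposite. In these 70 pairs 17 noncoding members and 27 sense genes (38.6%) were called, beside 32.4% of all genes. Whether such pairs moved together more than other genes was not tested. The pairs named in the next sentences were picked after their values were seen. ARHGEF26-AS1 was at 26.6 and 26.7 with PRMT5 shRNA 1 and at 37.5 and 33.3 with PRMT5 shRNA 2, against 56.5 and 48.0 with NTC shRNA (-0.54 ± 0.10). ARHGEF26, a guanine nucleotide exchange factor gene, was at 749 and 725 with PRMT5 shRNA 1 and at 899 and 906 with PRMT5 shRNA 2, against 1197 and 1200.3 with NTC shRNA (-0.55 ± 0.05). Both were lowest under the deeper knockdown, with no overlap between any of the groups. NNT-AS1 differed by -0.63 ± 0.09 beside -0.48 ± 0.14 for NNT, a mitochondrial transhydrogenase. ZNF503-AS2 differed by -0.49 ± 0.11 beside -0.50 ± 0.08 for ZNF503, and the ZNF503-AS2 call was lost without NTC replicate 2.

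Pairs with both higher included GATA6-AS1, again picked after its values were seen. GATA6-AS1 was at 25.6 and 26.7 with PRMT5 shRNA 1 and at 17.4 and 20.1 with PRMT5 shRNA 2, against 11.9 and 8.7 with NTC shRNA (0.54 ± 0.10, limma adjusted p = 0.00209). It reached the array median on its knockdown arrays alone, so the brightness rule itself favoured a rise. GATA6, a zinc finger transcription factor whose start lies 621 bases off, was at 553 and 494 with PRMT5 shRNA 1 and at 546 and 554 with PRMT5 shRNA 2, against 251 and 248 with NTC shRNA (1.06 ± 0.06, adjusted p = 4.97e-07). RASSF8-AS1 differed by 0.56 ± 0.10 beside 0.77 ± 0.06 for RASSF8, and DLX6-AS1 by 0.53 ± 0.13 beside 0.43 ± 0.07 for the homeobox gene DLX6. The DLX6-AS1 call was lost without NTC replicate 2. EPB41L4A-AS1, one of the brightest AS members, was at 1549 and 1676 with PRMT5 shRNA 1 and at 1652 and 1387 with PRMT5 shRNA 2, against 1175 and 1305 with NTC shRNA (0.33 ± 0.07, adjusted p = 0.00571). EPB41L4A differed by 0.27 ± 0.09 (adjusted p = 0.0338), with a call for neither hairpin alone, and the other probe set of EPB41L4A-AS1 was at -0.13. The EPB41L4A call ended without NTC replicate 1 (0.35, adjusted p = 0.0604), NTC replicate 2 (0.20, 0.266), PRMT5 shRNA 1 replicate 1 (0.22, 0.0972) or either array of PRMT5 shRNA 2 (0.28, 0.0505, and 0.27, 0.0512). Without NTC replicate 1, EPB41L4A-AS1 was at 0.26 (adjusted p = 0.0851).

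The 3 pairs called in opposite directions were these. DIP2C-AS2 was at 5.3 and 9.5 with PRMT5 shRNA 1 and at 10.2 and 11.5 with PRMT5 shRNA 2, against 24.6 and 22.2 with NTC shRNA (-0.65 ± 0.11, limma adjusted p = 0.000989). DIP2C was at 555 and 624 with PRMT5 shRNA 1 and at 539 and 424 with PRMT5 shRNA 2, against 458 and 402 with NTC shRNA (0.30 ± 0.09, adjusted p = 0.0333). DIP2C-AS2 reached the array median only with NTC, and DIP2C overlapped between PRMT5 shRNA 2 and NTC. The DIP2C call ended without NTC replicate 2 (0.21, adjusted p = 0.256), PRMT5 shRNA 1 replicate 2 (0.26, 0.0921) or PRMT5 shRNA 2 replicate 1 (0.21, 0.0635).

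ZBED5-AS1, whose start region is printed above, was at 489 and 497 with PRMT5 shRNA 1 and at 457 and 409 with PRMT5 shRNA 2, against 361 and 385 with NTC shRNA (0.30 ± 0.07, limma adjusted p = 0.00585). ZBED5, a transposase-derived zinc finger gene starting 164 bases away, was at 803 and 775 with PRMT5 shRNA 1 and at 898 and 885 with PRMT5 shRNA 2, against 985 and 998 with NTC shRNA (-0.24 ± 0.05, adjusted p = 0.00446). Neither overlapped between knockdown and NTC, and the ZBED5-AS1 call was lost without NTC replicate 1. TRAF3IP2-AS1 differed by -0.30 ± 0.10 (adjusted p = 0.0368), overlapped between groups and was not called without any of 4 single arrays, both NTC arrays among them. TRAF3IP2, an adaptor of interleukin-17 receptor signalling, differed by 0.48 ± 0.08 (adjusted p = 0.000897).

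Some antisense transcripts moved while the sense gene had no call, as for these 4 picked after their values were seen. TNRC6C-AS1 was at 289 and 287 with PRMT5 shRNA 1 and at 344 and 334 with PRMT5 shRNA 2, against 188 and 198 with NTC shRNA (0.65 ± 0.07), beside -0.14 ± 0.12 for TNRC6C. GPC1-AS1 was at 74.7 and 79.3 with PRMT5 shRNA 1 and at 103 and 95.1 with PRMT5 shRNA 2, against 49.7 and 46.7 with NTC shRNA (0.69 ± 0.09), beside -0.09 ± 0.10 for the heparan sulfate proteoglycan gene GPC1. The arrays of both antisense transcripts were apart from NTC. TMEM147-AS1 differed by -0.57 ± 0.09 beside -0.04 ± 0.07 for TMEM147, and GABPB1-AS1 by -0.54 ± 0.08 beside -0.00 ± 0.07 for GABPB1. The other kept probe sets of GABPB1-AS1 were at 0.12, -0.25 and 0.13, and its call was lost with the mean over probe sets. A missing call does not show that a sense gene was unchanged.

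ACTA2-AS1 and ACTA2, smooth muscle actin, were both called lower. ACTA2 was at 22.9 and 19.8 with PRMT5 shRNA 1 and at 52.1 and 49.0 with PRMT5 shRNA 2, against 129 and 141 with NTC shRNA (-1.60 ± 0.09, limma adjusted p = 2.69e-07). ACTA2-AS1 was at 9.3 and 8.6 with PRMT5 shRNA 1 and at 8.9 and 14 with PRMT5 shRNA 2, against 18.4 and 18.6 with NTC shRNA (-0.40 ± 0.11, adjusted p = 0.0157). ACTA2-AS1 reached the array median on its NTC arrays alone, so it had to differ and the size of its difference cannot be set against that of ACTA2. Its call was lost on leaving out either NTC array.

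The targeted locus has an antisense member of its own. PRMT5-AS1 was at 17.4 and 19.6 with PRMT5 shRNA 1 and at 31.2 and 30.7 with PRMT5 shRNA 2, against 25.8 and 34.6 with NTC shRNA. It was lower with PRMT5 shRNA 1 (-0.42 ± 0.12, limma adjusted p = 0.0198), was at 0.03 ± 0.12 with PRMT5 shRNA 2 (adjusted p = 0.894), and had no call over both (-0.19 ± 0.11). PRMT5 fell by 1.97 ± 0.07 on the log2 scale over both hairpins.

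Of the 3 brightest members in each of the LINC and AS classes, LINC02987, LINC01128 and EPB41L4A-AS1 were called and are described above, and LINC00621, FGD5-AS1 and OIP5-AS1 were not. FGD5-AS1 was at 3180.2 and 3318 with PRMT5 shRNA 1 and at 3150 and 3050.1 with PRMT5 shRNA 2, against 3013 and 3065 with NTC shRNA (0.06 ± 0.04, limma adjusted p = 0.292). OIP5-AS1, known as cyrano and as a binder of miR-7, averaged 1168 with PRMT5 shRNA 1 and 1340.3 with PRMT5 shRNA 2, against 1298 with NTC shRNA (-0.05 ± 0.05, adjusted p = 0.443), and OIP5 was at 0.04 ± 0.07. LINC00621 averaged 874 and 937, against 947 (-0.06 ± 0.06, adjusted p = 0.403). GABPB1-IT1, the brightest of the 6 IT members, was at 177 and 178 with PRMT5 shRNA 1 and at 176 and 204 with PRMT5 shRNA 2, against 267 and 192 with NTC shRNA (-0.28 ± 0.11, adjusted p = 0.0762). Its NTC arrays are far apart, and without NTC replicate 2 it was at -0.51. The other kept probe sets of GABPB1-IT1 went the other way, at 0.22 and 0.10.

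Each hairpin was also set against NTC shRNA alone, and the 2 comparisons share their NTC arrays. PRMT5 shRNA 1 gave 48 members higher and 73 lower, 32.5% beside 39.3% of all genes (16.2% higher and 23.2% lower). PRMT5 shRNA 2 gave 36 higher and 40 lower, 20.4% beside 21.5% of all genes (13.1% higher and 8.42% lower). Left-out arrays moved the second count to 42 (without NTC replicate 1), 50 (without NTC replicate 2) and 48 (without PRMT5 shRNA 2 replicate 1), and the count lower with PRMT5 shRNA 1 to 48 (without NTC replicate 1).

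Set directly against each other, PRMT5 shRNA 2 and PRMT5 shRNA 1 differed for 76 members, 54 higher and 22 lower with PRMT5 shRNA 2. That is 20.4% beside 25.7% of all genes, 14.5% higher beside 18.3% and 5.91% lower beside 7.38%. The count was 39 without PRMT5 shRNA 1 replicate 1, 28 without PRMT5 shRNA 1 replicate 2 and 40 without PRMT5 shRNA 2 replicate 2. PRMT5 itself was 1.09 ± 0.08 higher with PRMT5 shRNA 2, so depth of knockdown and identity of the hairpin cannot be told apart in these differences.

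Some members moved in opposite directions with the 2 hairpins. PDCD4-AS1 was at 23.7 and 21.3 with PRMT5 shRNA 1 and at 47.9 and 50.6 with PRMT5 shRNA 2, against 32.9 and 30.0 with NTC shRNA. It was lower than NTC with the first (-0.30 ± 0.11, limma adjusted p = 0.0445) and higher with the second (0.46 ± 0.11, adjusted p = 0.0107). PEG3-AS1 was at 42.7 and 49.0 with PRMT5 shRNA 1 and at 18.5 and 22.6 with PRMT5 shRNA 2, against 33.0 and 30.5 with NTC shRNA. Its arrays were above NTC with the first hairpin (0.37 ± 0.11, adjusted p = 0.0247) and below with the second (-0.39 ± 0.11, adjusted p = 0.0337). PEG3, the imprinted zinc finger gene it overlaps, was lower with both (-0.44 ± 0.08 and -0.53 ± 0.08). The only kept probe set of PEG3-AS1 is an _s_at set, which can pair with more than 1 transcript.

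LINC02603 was at 571 and 652 with PRMT5 shRNA 1 and at 339 and 376 with PRMT5 shRNA 2, against 474 and 417 with NTC shRNA. It was called higher with the first hairpin (0.44 ± 0.09) and lower with the second (-0.30 ± 0.09). ID2-AS1 was at 93.2 and 92.1 with PRMT5 shRNA 1 and at 177 and 156 with PRMT5 shRNA 2, against 123 and 106 with NTC shRNA, with a call only for the second (0.48 ± 0.10, limma adjusted p = 0.00603). The other kept probe set of ID2-AS1 was dim and did not show this rise. It averaged 13.55 with PRMT5 shRNA 1 and 15.1 with PRMT5 shRNA 2, against 21.25 with NTC shRNA. ID2, a helix-loop-helix protein that blocks DNA binding of its partners, was higher with both hairpins (0.69 ± 0.07 and 0.53 ± 0.07). WDFY3-AS2 was at 53.7 and 31.5 with PRMT5 shRNA 1 and at 76.0 and 82.6 with PRMT5 shRNA 2, against 59.2 and 62.5 with NTC shRNA, and had no call against NTC with either. Its PRMT5 shRNA 1 arrays were far apart, and without replicate 2 of that group the difference between hairpins was 0.45 (adjusted p = 0.0523). WDFY3 was at -0.08 ± 0.08.

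Others moved with 1 hairpin or by unequal amounts. NPTN-IT1 was at 167 and 190.3 with PRMT5 shRNA 1 and at 109 and 96.4 with PRMT5 shRNA 2, against 118 and 109 with NTC shRNA, higher with the first (0.58 ± 0.10, limma adjusted p = 0.00119). NPTN, an adhesion protein gene, was at 0.05 ± 0.04. LINC00161 was at 28.6 and 26.8 with PRMT5 shRNA 1 and at 11.9 and 10.1 with PRMT5 shRNA 2, against 10.8 and 13.4 with NTC shRNA (0.64 ± 0.11 with the first). The only kept probe set of LINC00161 is an _x_at set. LINC00161 reached the array median with PRMT5 shRNA 1 alone, so it entered through the group in which it is bright and had to differ. Its PRMT5 shRNA 2 and NTC arrays overlapped, and its call over both hairpins (0.29 ± 0.10, adjusted p = 0.0446) was lost on leaving out any single array, at 0.22 to 0.36. HECW2-AS1 was at 72.7 and 64.4 with PRMT5 shRNA 1 and at 112 and 113 with PRMT5 shRNA 2, against 127 and 120 with NTC shRNA, lower with the first (-0.72 ± 0.10, adjusted p = 0.000217).

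**Figure D5:**
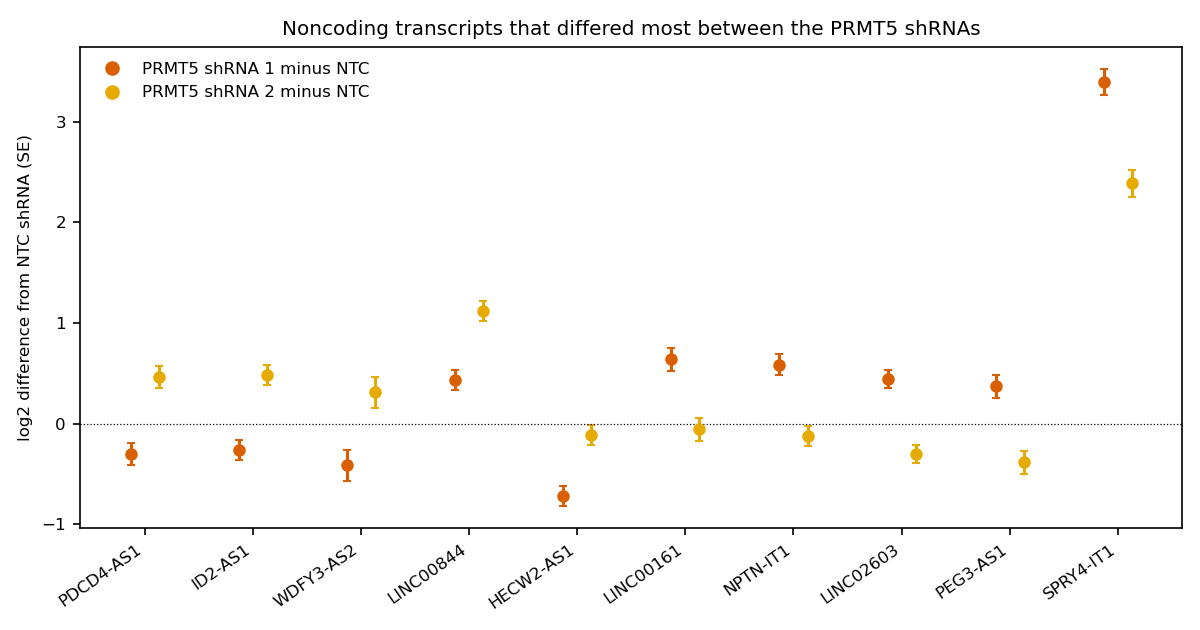
The vertical axis is the log2 difference from NTC shRNA with its standard error, for PRMT5 shRNA 1 (left point of each pair) and PRMT5 shRNA 2 (right point), for the 10 noncoding genes with the largest called difference between the hairpins. PDCD4-AS1, LINC02603 and PEG3-AS1 lie on opposite sides of 0, and SPRY4-IT1 is far above 0 with both.

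Noncoding genes named for the prostate were listed apart from the symbol rule, and 3 of the 10 tested are members. Of the 10, 5 were higher, 1 lower and 4 not called, beside 15.4% higher and 17.0% lower of all genes, with a median of 0.09. ARLNC1, a noncoding RNA regulated by the androgen receptor, was at 60.1 and 58.0 with PRMT5 shRNA 1 and at 85.3 and 74.2 with PRMT5 shRNA 2, against 23.8 and 18.6 with NTC shRNA (1.19 ± 0.10, limma adjusted p = 5.98e-06). LINC00844, a member known as androgen responsive in prostate cells, was at 54.5 and 59.1 with PRMT5 shRNA 1 and at 99.6 and 102 with PRMT5 shRNA 2, against 36.8 and 39.1 with NTC shRNA (0.77 ± 0.09, adjusted p = 5.9e-05). Neither overlapped between groups, and LINC00844 was higher with PRMT5 shRNA 2 than with PRMT5 shRNA 1 (0.68 ± 0.10). PART1, also androgen regulated, rose by 0.50 ± 0.09, and DRAIC fell by 0.54 ± 0.06. Among androgen-regulated coding genes of the luminal markers, picked after their values were seen, KLK3 was higher (1.13 ± 0.05), KLK2 slightly higher (0.16 ± 0.05) and TMPRSS2 lower (-0.21 ± 0.07). The other 2 members of the list, OIP5-AS1 and TMPO-AS1 (-0.23 ± 0.09), were not called.

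Of 17 further noncoding genes whose symbols lie outside the rule, 3 were higher, 5 lower and 9 not called, with a median of -0.07. Among all genes tested 15.4% were higher and 17.0% lower. UCA1 averaged 32.0 with PRMT5 shRNA 1 and 37.7 with PRMT5 shRNA 2, against 9.85 with NTC shRNA (0.98 ± 0.10). That NTC mean is below the lowest array median (14.8). The NTC arrays alone could therefore not have brought UCA1 in, and the brightness rule itself favoured its rise. HOTAIR, which is transcribed from the HOXC cluster, averaged 16.1 and 20.9, against 30.0 (-0.42 ± 0.09), and CRNDE averaged 817 and 924, against 1101 (-0.34 ± 0.05). FTX, a transcript of the X inactivation centre, averaged 52.3 with PRMT5 shRNA 1 and 23.4 with PRMT5 shRNA 2, against 25.1 with NTC shRNA, with an average difference of 0.33 ± 0.11 and a call with the first hairpin alone (0.73 ± 0.12).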

How the data were processed

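Total RNA of 6 VCaP samples was amplified, labelled with biotin and hybridised to arrays, per the labels' protocols. The deposited intensity values of 54675 probe sets come from MAS5 as the submitters' processing notes name it, and its version is not given in the sources used here. The mean after trimming 2% at each end was about 150 on every array, so no further scaling was applied, and 0 value columns matched no sample. The number of arrays limits the precision.

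Groups came from the sample titles. The 62 control probe sets were left out, and probe sets with a single symbol in the platform annotation were named. A gene's kept probe set with the highest mean log2 value was used. The authors' deposited intensities were put on the log2 scale after adding 16, and limma 3.58.1 (R 4.3.3) fitted the values (1 coefficient per group, eBayes with trend, 3 residual and 7.91 prior degrees of freedom), which was tested on simulated data. Benjamini-Hochberg adjustment ran over all 12413 genes at 0.05, two-sided. Values after ± are standard errors unless stated. Alternatives changed the pseudocount, filter, scaling, probe set choice, grouping, trend, replicate block and left-out array. Positions and sequences are RefSeq's (GRCh38.p14), of which 300 members had a start region.

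Members and lists were chosen with earlier results of these data known. Named were called members with at least 2-fold differences, the 10 highest and 10 lowest called without overlap, the 3 brightest of each class, called SNHG and MIRHG members, the 10 largest called differences between hairpins, their sense genes, members next to the brightness limit, and up to 4 genes a list. Others are said to have been picked after their values were seen. Replicate deviations of equal number correlated at -0.00 (PRMT5 shRNA 1 and 2), -0.09 (PRMT5 shRNA 1 and NTC) and -0.18 (PRMT5 shRNA 2 and NTC), so the numbers were not taken as pairs.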

Additional observations from a re-analysis of the deposited data

Results flagged for a closer look

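The 10 noncoding genes with the largest called difference between the PRMT5 hairpins, given as the log2 value of PRMT5 shRNA 2 minus PRMT5 shRNA 1 with limma's adjusted p, are collected here. Higher with PRMT5 shRNA 2 were PDCD4-AS1 (0.76, adjusted p = 0.00127), ID2-AS1 (0.75, 0.00111), WDFY3-AS2 (0.73, 0.00779), LINC00844 (0.68, 0.00146) and HECW2-AS1 (0.61, 0.00215). Lower with PRMT5 shRNA 2 were SPRY4-IT1 (-1.01, 0.000934), PEG3-AS1 (-0.76, 0.00177), LINC02603 (-0.75, 0.000718), NPTN-IT1 (-0.71, 0.00137) and LINC00161 (-0.70, 0.00263). In each gene both arrays of one hairpin lay on the same side of both arrays of the other. The genes were picked by this same difference, so that separation is no further support. LINC00161 reached the array median with PRMT5 shRNA 1 alone, so the brightness rule itself favoured that difference. The only kept probe set of LINC00161 is an _x_at set, and that of PEG3-AS1 an _s_at set. The other kept probe set of ID2-AS1 averaged 13.55 with PRMT5 shRNA 1 and 15.1 with PRMT5 shRNA 2. All genes called between the hairpins came to 25.7% of those tested. The depth of PRMT5 knockdown differs between the same groups and cannot be told apart from the hairpin.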

How the results depend on the processing

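With the replicate number as a block, members called came to 110 with both hairpins averaged against NTC shRNA, 120 for PRMT5 shRNA 1, 72 for PRMT5 shRNA 2 and 71 between the hairpins, and LINC00161 (adjusted p = 0.0587) was the sole named call lost. A crossed replicate block, chosen after seeing the data, gave 113, 129, 77 and 73. Fitting both hairpins as 1 group left 47 (22 higher, 25 lower), with 12.1% of all genes. With no filter on dim probe sets, 28 members were higher with PRMT5 shRNA 2 than with PRMT5 shRNA 1. Leaving out 1 array at a time gave 53 to 109 calls over both hairpins (24 to 45 higher, 29 to 64 lower), 83 to 128 for PRMT5 shRNA 1 (33 to 50 and 48 to 78), 42 to 70 for PRMT5 shRNA 2 (23 to 33 and 18 to 37) and 28 to 69 between the hairpins (20 to 48 and 8 to 21). The lone array left in a group was assumed to vary like the other groups. MIR99AHG turned to -0.018 with the mean over its probe sets (adjusted p = 0.817) and to -0.45 without _x_at and _s_at probe sets (adjusted p = 0.00505), the construction of both bringing in other probe sets. SNHG17 gained a call under both of these settings (-0.18 and -0.25). Dim members near the array median limit what a missing call can show.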
